A study of Glycine max with 18 samples.

Results

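Seed transcripts of the low phytate (LPA) soybean mutants TW-1-M and TW-1 were compared at root emergence, the third of the germination stages sampled. The 6 libraries used here are those of the stage at which the primary root measured 1 mm. They comprise 3 replicates of TW-1-M-3 and 3 replicates of TW-1-3, and they were chosen by their sample labels from the 18 libraries of the series. TW-1 was obtained by gamma irradiation of the vegetable soybean variety Taiwan 75, and TW-1-M arose naturally within the TW-1 line. Both mutants carry the same small deletion in a myo-inositol phosphate synthase gene (MIPS1), so the comparison does not test the low phytate trait, and TW-1-M differs from TW-1 by its higher seed field emergence. The question behind the comparison was which genes accompany that difference in emergence. The seeds germinated in the dark on B5 agar, and the earlier stages, used here only for reference, were the imbibed seed (stage 1) and the seed with reactivated metabolism (stage 2) of both lines, with 3 libraries each, so that TW-1-M-2 stands for stage 2 of TW-1-M. The RNA came from germinating seeds, each mutant is a single line, and no label says that replicates came from separate cultures, so p-values measure only the spread between libraries.

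Expression was given as FPKM, the fragments mapped to a gene relative to its length and to all mapped fragments of the library, and was compared as log2(FPKM + 1), which understates the fold change of genes near 0. Of 45955 genes in the table, the 27150 that reached an FPKM of 1 in 3 or more libraries were tested with limma. A differentially expressed gene (DEG) had an unadjusted p under 0.05 and a log2 fold change beyond 1 in either direction, and calls at a Benjamini-Hochberg adjusted p below 0.05 are given beside these. Log2 fold changes are TW-1-M-3 minus TW-1-3, with the standard error of the fit after ±. The depth in reads is not known from this table. In whole seeds, fewer cells of one kind and less RNA per cell cannot be told apart.

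A dry seed stores transcripts of late embryogenesis abundant (LEA) proteins, which protect membranes and enzymes during drying. It also stores transcripts of storage proteins, oleosins and the enzymes that make raffinose family sugars. These transcripts are cleared after imbibition, while genes for water channels, the cytoskeleton, cell walls and DNA replication become active before the root emerges. Phytate itself is made from inositol during seed filling, a path that begins with MIPS and ends with the inositol phosphate kinases, and it is broken down by phytases during germination.

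One library stood apart from its replicates, and the main results are therefore also given without it. Because no gene was called between stages 1 and 2 in TW-1, the genes that change early in germination were taken, after the data were seen, from TW-1-M alone. Among the 3100 that rose there, the median log2(FPKM + 1) was 3.91, 3.5 and 3.97 in the TW-1-M-3 libraries and 1.31, 3.82 and 3.58 in the TW-1-3 libraries. TW-1-3 replicate 1 thus lay near the 3 libraries of TW-1-1, at 1.17, 0.90 and 1.57. It also lay near TW-1-2 replicate 1, at 1.29, while TW-1-2 replicates 2 and 3 were at 2.54 and 2.32. Among the 1878 that fell, the median was 2.40, 2.81 and 2.25 in TW-1-M-3 against 4.36, 2.77 and 2.91 in TW-1-3. On that list TW-1-3 replicate 1 was closer to TW-1-2, at 5.03, 4.39 and 4.41, than to TW-1-1, at 5.25, 5.07 and 4.91. In addition, 96 genes were listed at 0 in TW-1-3 replicate 1 while both other TW-1-3 libraries exceeded an FPKM of 10, against at most 6 such genes in any of the other 17 libraries. Genes with an FPKM of at least 1 numbered 25058 ± 112 in TW-1-M-3 and 23848 ± 2023 in TW-1-3 (SD, n = 3 each), a difference that did not pass an exact two-sided permutation test (p = 0.4, with 0.1 the smallest p that 3 against 3 allows). Without replicate 1 the TW-1-3 mean was 24984 genes.

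In the 3 against 3 comparison 1367 genes, or 5.03% of those tested, were DEGs, of which 540 were higher (1.99% of those tested) and 827 lower (3.05%) in TW-1-M-3. At the adjusted p only 5 genes, or 0.0184%, were called. Without TW-1-3 replicate 1 there were 928 DEGs (3.42%), 326 of them higher (1.2%) and 602 lower (2.22%), and 47 genes (0.173%) were called at the adjusted p, 17 higher (0.0626%) and 30 lower (0.11%). Leaving out any other library left 0 calls at the adjusted p, and the DEGs then numbered 2859 without TW-1-3 replicate 2, 1886 without TW-1-3 replicate 3, 651 without TW-1-M-3 replicate 1, 1369 without TW-1-M-3 replicate 2 and 879 without TW-1-M-3 replicate 3. Of the DEGs, 703 were shared by both fits, all in the same direction, and these fits share 5 libraries. The direction of the counts depended on the scaling: with each library scaled to the same FPKM sum, 1890 DEGs were higher and 363 lower, the median of all genes shifted by 0.37, and without TW-1-3 replicate 1 the counts were 894 and 322 with a shift of 0.22. Summed FPKM was 709835 to 808320 in TW-1-M-3 and 793482 to 1296622 in TW-1-3.

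The clearest group was that of the seed maturation transcripts, which were far lower in TW-1-M-3. The 3 genes SLE1, SLE2 and SLE3, of which SLE2 is named as an Em protein, a small hydrophilic LEA protein, fell outside the naming pattern of the LEA list. SLE1 (XM_003552214.2) had 0.47, 0.74 and 0.63 FPKM in TW-1-M-3, against 82.0, 121 and 44.5 FPKM in TW-1-3. The groups did not overlap, and SLE1 fell by 5.59 ± 0.40 on the log2 scale (limma adjusted p = 0.0299), the largest decrease among the genes called at the adjusted p. SLE2 (NM_001250358.1) had 10.4, 14.6 and 11.2 FPKM in TW-1-M-3, against 1040, 592 and 150 FPKM in TW-1-3. SLE3 (NM_001250257.2) had 1.48, 1.88 and 3.10 FPKM in TW-1-M-3, against 68.7, 147 and 40.3 FPKM in TW-1-3. Both were DEGs, with log2 fold changes of -5.13 ± 0.69 and -4.61 ± 0.50. The log2 fold changes of SLE1, SLE2 and SLE3 without TW-1-3 replicate 1 were -5.54, -4.53 and -4.66, and the adjusted p of SLE1 was 0.018 and that of SLE3 0.0435.

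**Figure D1:**
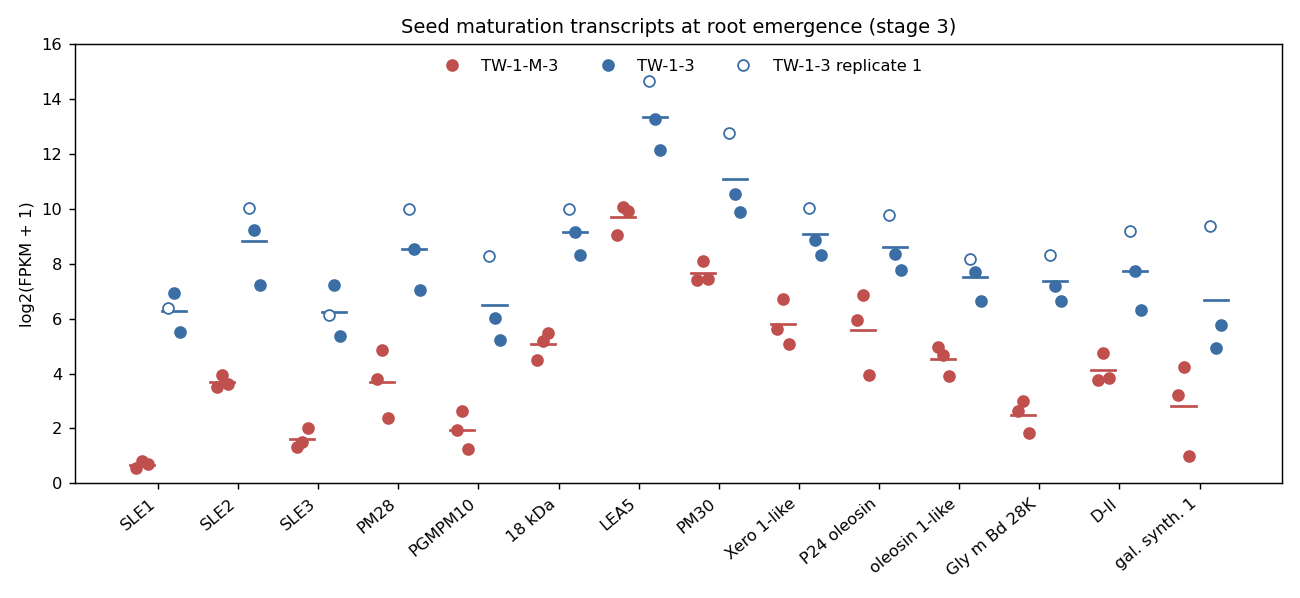
Expression of 14 seed maturation genes at stage 3 as log2(FPKM + 1), 1 point per library, TW-1-M-3 in red to the left and TW-1-3 in blue to the right of each gene, bars at group means and TW-1-3 replicate 1 as an open circle. In each of the 14 genes the 3 TW-1-M-3 libraries lie below all TW-1-3 libraries, with SLE1 at a log2 fold change of -5.59, and the open circle is the highest point except in SLE1 and SLE3.

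Of 25 genes named as LEA or seed maturation proteins, 23 were DEGs lower in TW-1-M-3, none was a DEG higher, and the median log2 fold change was -3.27, beside 0.01 for all genes tested. LEA5 (NM_001248671.1), a hydrophobic LEA protein, was the most abundant of them, with 532, 1079 and 972 FPKM in TW-1-M-3, against 26040, 9778 and 4517 FPKM in TW-1-3. The 18 kDa seed maturation protein-like gene (XM_003533874.2) had 21.8, 35.7 and 43.8 FPKM in TW-1-M-3, against 1013, 575 and 321 FPKM in TW-1-3, and its log2 fold change was -4.10 ± 0.50. PM28 (NM_001251057.1) had 12.8, 28.01 and 4.24 FPKM in TW-1-M-3, against 1024, 371 and 130.04 FPKM in TW-1-3. In all of these the lowest TW-1-3 library was above the highest TW-1-M-3 library. The smallest change among the 23 was that of PM16 (NM_001250481.2), at -1.68 ± 0.52. PM27 (XM_006591858.2) ran in the other order within TW-1-3, where replicate 1 was lowest: it had 4.05, 3.00 and 5.69 FPKM in TW-1-M-3, against 14.9, 42.1 and 21.1 FPKM in TW-1-3. The remaining 2 genes of the list, named after their values were seen, were the KS-type dehydrin SLTI629 and the Lea14 homolog, which overlapped between the groups. Of all genes tested 11.4% were lower in TW-1-M-3 with no overlap, against 23 of these 25.

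The maturation genes kept their direction without TW-1-3 replicate 1. Then 22 of the 25 were DEGs, all lower in TW-1-M-3, the median was -2.59, and 23 of 25 did not overlap between the groups, where 16.9% of all genes were separated in that direction. The gene that was no longer a DEG was the late embryogenesis abundant protein D-34-like gene (XM_003536862.3), with 19.8, 57.4 and 2.90 FPKM in TW-1-M-3, against 624, 74.0 and 93.9 FPKM in TW-1-3. On this list 2 genes were called at the adjusted p, the 18 kDa gene (log2 fold change -3.69 ± 0.39, limma adjusted p = 0.0381) and PGMPM10 (NM_001251209.1, -3.67 ± 0.44, adjusted p = 0.0494). Over all alternatives tried in the 3 against 3 comparison, 21 to 23 of these genes were DEGs lower in TW-1-M-3, and without TW-1-3 replicate 1 the range was 17 to 23. Its lowest counts, 17 and 19, came from leaving out TW-1-3 replicate 2 or 3 as well, where the lone TW-1-3 library was assumed to vary like the TW-1-M-3 libraries. The names come from gene lists of the study, most of which were chosen for differing between samples of this series, so these counts are not independent evidence of a direction. Among all 2988 annotated genes tested 14.8% were DEGs, 5.96% higher and 8.8% lower, and the median was 0.24. The shares without TW-1-3 replicate 1 were 11.7%, 4.05% and 7.66% and the median was -0.03.

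At stage 2 the LEA list was lower in TW-1-M libraries as well. Its median log2(FPKM + 1) was 3.83, 4.86 and 3.04 in TW-1-M-3 against 9.29, 7.39 and 6.92 in TW-1-3, and 7.59, 7.59 and 7.88 in TW-1-M-2 against 10.84, 9.90 and 10.38 in TW-1-2. At stage 1 the medians were 9.99, 10.46 and 10.48 in TW-1-M-1 against 11.30, 10.39 and 11.85 in TW-1-1, and there the lines overlapped. TW-1-3 replicates 2 and 3 were thus close to the TW-1-M-2 libraries, and replicate 1 lay between those and TW-1-2. The summed FPKM of the list was 3518, 3303 and 4299 in TW-1-M-3, against 48592, 18146 and 9762 in TW-1-3. The line difference at stage 3 was set against that at the other stages with limma's interaction test, which called 0 of the 25 genes at the adjusted p, with or without TW-1-3 replicate 1. At an unadjusted p under 0.05 it called 2 genes against stage 2 and 18 against stage 1, or 3 and 13 without that library. Of all 27150 genes tested it called 2979 against stage 2 and 2393 against stage 1, or 6179 and 2948 without that library.

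**Figure D2:**
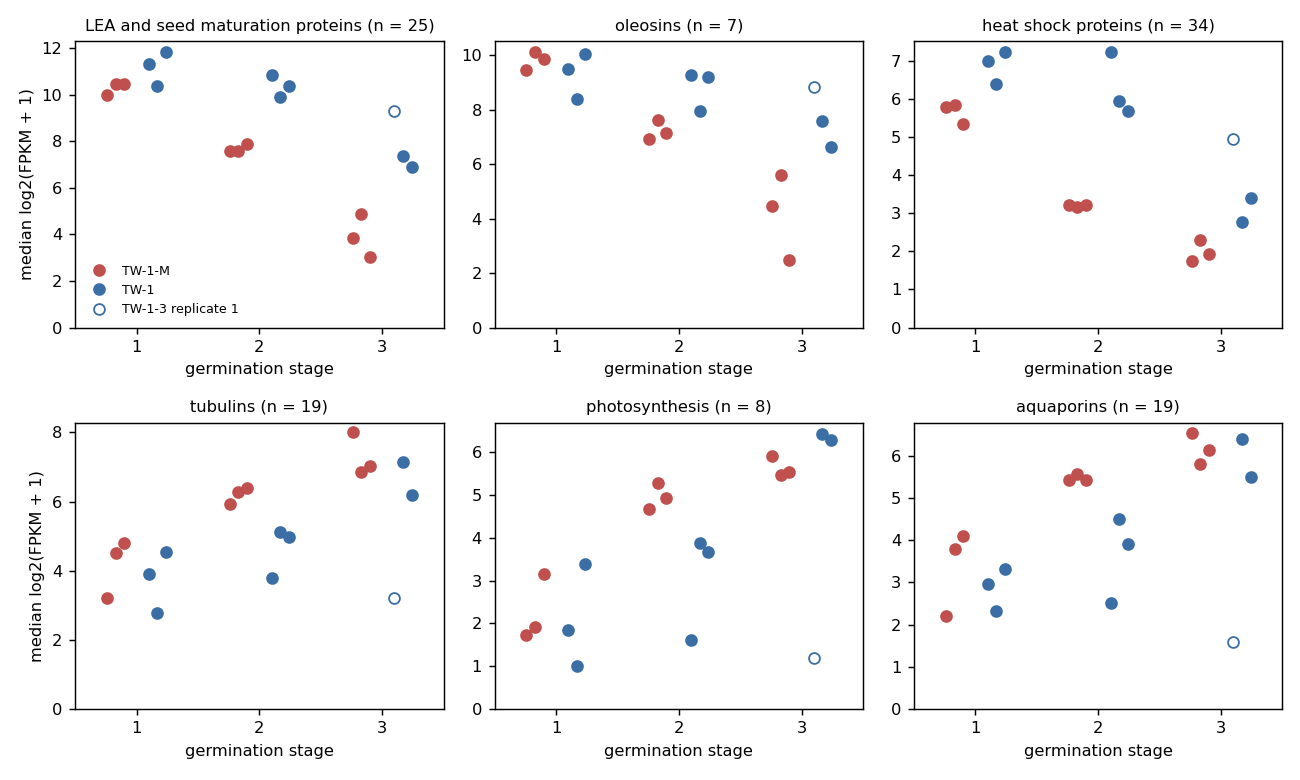
Median log2(FPKM + 1) of 6 gene lists in each of the 18 libraries by germination stage, with TW-1-M in red to the left of TW-1 in blue and TW-1-3 replicate 1 as an open circle. At stage 3 the 3 TW-1-M libraries lie below all TW-1 libraries for LEA proteins (3.04 to 4.86 against 6.92 to 9.29), oleosins and heat shock proteins, while for tubulins, photosynthesis and aquaporins only the open circle lies far below the rest.

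Oleosin genes showed the same direction, and so did the DEGs for breakdown of stored lipid. Of 7 oleosins, the proteins that coat oil bodies, 5 were DEGs lower in TW-1-M-3 and none was higher, with a median of -2.94. Among all annotated genes tested, 5.96% were DEGs higher and 8.8% lower, or 4.05% and 7.66% without TW-1-3 replicate 1. The same shares stand beside the counts of the lipid breakdown, storage protein, raffinose family and heat shock genes below. Oleosin 1-like (XM_003526416.3) had 29.9, 24.7 and 14.0 FPKM in TW-1-M-3, against 289.8, 208 and 98.0 FPKM in TW-1-3, and its log2 fold change was -2.99 ± 0.50. P91 (NM_001251589.1), the 24 kDa isoform, had 70.3, 213 and 10.04 FPKM in TW-1-M-3, against 1139, 334 and 197 FPKM in TW-1-3, so that TW-1-M-3 replicate 2 reached the lowest TW-1-3 library. Without TW-1-3 replicate 1, 4 oleosins were DEGs, P91 was not, and the median was -2.22. In that fit no filter gave 1 DEG, and the other alternatives that kept both remaining TW-1-3 libraries gave 3 to 6. With TW-1-3 replicate 1 kept, leaving out TW-1-M-3 replicate 1 left 3 DEGs among the 7. So did leaving out TW-1-M-3 replicate 3, with a median of -1.82. Of 5 genes for breakdown of stored lipid, 2 were DEGs and both were lower, the glyoxylate cycle enzyme gene ICL1 (NM_001252940.1) at -1.98 ± 0.59 and the peroxisomal acyl-CoA oxidase gene ACX1;1 (NM_001248619.1) at -1.11 ± 0.33. Only ICL1 was a DEG without TW-1-3 replicate 1, at -1.43.

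Among 9 genes for seed storage proteins and protease inhibitors, 4 were DEGs lower in TW-1-M-3 in both fits and the others were not DEGs. The list median was -0.90 with all 6 libraries, where 8 of the 9 were lower. Without TW-1-3 replicate 1 it was -0.32, with 5 lower and 4 higher. The beta-conglycinin, beta chain-like gene (XM_003536477.3) had 4.64, 9.36 and 9.17 FPKM in TW-1-M-3, against 41.5, 73.0 and 42.7 FPKM in TW-1-3, and its log2 fold change was -2.62 ± 0.38. The Bowman-Birk inhibitor gene D-II (NM_001249286.1), the product of which blocks trypsin-like proteases, was at -3.63 ± 0.73, GY4 (NM_001251079.1), which encodes a glycinin, at -3.11 ± 0.73, and CG-1 (NM_001250387.1), which encodes the alpha prime subunit of beta-conglycinin, at -2.28 ± 0.55. The Kunitz trypsin inhibitor gene KTI-1 (NM_001249346.1) overlapped between the groups, with 131, 186 and 77.6 FPKM in TW-1-M-3, against 836, 130.05 and 106 FPKM in TW-1-3. The allergen gene Gly m Bd 28K (NM_001280572.1), which encodes a vicilin-like protein, lay outside the list and had 5.25, 6.97 and 2.57 FPKM in TW-1-M-3, against 316, 145 and 99.0 FPKM in TW-1-3. It was a DEG at -4.89 ± 0.52 and passed the adjusted p without TW-1-3 replicate 1 (-4.43 ± 0.38, adjusted p = 0.0222).

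Of 11 genes for raffinose family sugars, which stabilise dry cells, 4 were DEGs, all lower in TW-1-M-3, with a median of -1.64. Leaving out TW-1-3 replicate 3 gave 7 DEGs and leaving out TW-1-M-3 replicate 3 gave 1. Without TW-1-3 replicate 1, 4 were DEGs and the median was -0.67. In that fit no filter gave 0 DEGs, and the other alternatives that kept both remaining TW-1-3 libraries gave 3 to 5. Galactinol synthase 1 (XM_003521556.3), the first enzyme of that path, had 8.35, 18.1 and 1.02 FPKM in TW-1-M-3, against 658, 29.5 and 53.5 FPKM in TW-1-3. The log2 fold change was -3.86 ± 1.30 with TW-1-3 replicate 1 and -2.52 ± 0.87 without it. A pair of alpha-type tonoplast water channels of the protein storage vacuole were also lower. LOC100814469 (XM_003536134.3) had 3.91, 7.89 and 1.99 FPKM in TW-1-M-3, against 90.6, 58.4 and 28.9 FPKM in TW-1-3 (-3.43 ± 0.55), and LOC100817450 (XM_003534021.3) was at -4.32 ± 0.94. The 1-Cys peroxiredoxin gene (XM_003531062.3), an antioxidant protein of seed tissues, had 0.38, 0.38 and 0.22 FPKM in TW-1-M-3, against 5.73, 24.1 and 10.9 FPKM in TW-1-3, and was called at the adjusted p without TW-1-3 replicate 1 (-3.71 ± 0.32, adjusted p = 0.0222).

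Heat shock proteins, chaperones that also accumulate in maturing seeds, had more DEGs lower than higher in TW-1-M-3, as did the annotated genes as a whole. Of 34 genes, 13 were DEGs lower and 2 DEGs higher in TW-1-M-3, with a median of -0.79, and the counts were 10 and 2 without TW-1-3 replicate 1, with a median of -0.47. The small mitochondrial 26.5 kDa protein gene (XM_003531664.3) had 1.17, 2.98 and 0.59 FPKM in TW-1-M-3, against 90.2, 8.66 and 13.7 FPKM in TW-1-3, at -3.29 ± 0.85. The gene for Hsp23.9 (XM_006591855.2) went the other way, with 137, 61.2 and 55.5 FPKM in TW-1-M-3, against 54.9, 20.8 and 27.8 FPKM in TW-1-3, at 1.27 ± 0.51. Leaving out TW-1-M-3 replicate 3 reduced the 13 to 6 and leaving out TW-1-M-3 replicate 1 reduced them to 8. Against stage 2 the interaction test called 11 of the 34 at the adjusted p without TW-1-3 replicate 1 and 1 with it. The shares of all genes tested were 1.69% and 0.0405%. The list median of log2(FPKM + 1) was 3.21, 3.17 and 3.22 in TW-1-M-2 against 7.23, 5.94 and 5.68 in TW-1-2. At stage 3 it was 1.74, 2.29 and 1.92 in TW-1-M-3 against 4.95, 2.77 and 3.40 in TW-1-3. By these medians the lines were further apart at stage 2.

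**Figure D3:**
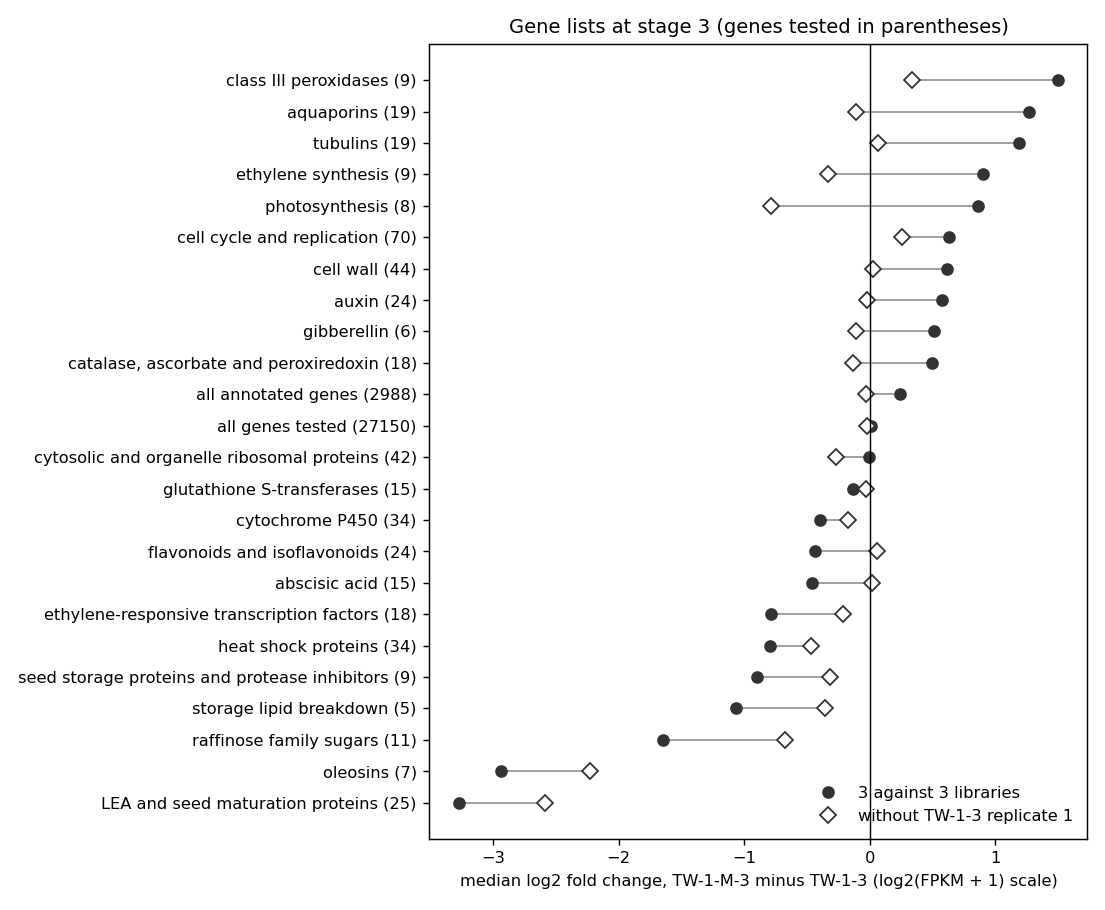
Median log2 fold change (TW-1-M-3 minus TW-1-3) of 22 gene lists, of all annotated genes and of all genes tested, with the number of genes tested in parentheses, for 3 against 3 libraries (filled circles) and without TW-1-3 replicate 1 (open diamonds). LEA proteins (-3.27 and -2.59) and oleosins (-2.94 and -2.22) stay low in both, whereas photosynthesis moves to -0.79 from 0.87 when that library is left out.

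Genes that become active with growth depended on TW-1-3 replicate 1, and the tubulins also on the scaling. All 19 tubulins, the subunits of microtubules, had a higher mean in TW-1-M-3 in the 3 against 3 comparison, with a median of 1.19, where 50.6% of all genes were higher, yet none was a DEG. Without that library 10 of 19 were higher, beside 47.7% of all genes, and the median was 0.07, while leaving out TW-1-3 replicate 2 instead made 5 of them DEGs. After quantile normalization without TW-1-3 replicate 1, 16 of 19 were higher, with a median of 0.28 beside 0.02 for all genes. With equal FPKM sums, also without TW-1-3 replicate 1, 17 were higher, with a median of 0.36 beside 0.22 for all genes. TUBB3 (NM_001252709.1), a beta-tubulin gene, had 724, 563 and 792 FPKM in TW-1-M-3, against 7.22, 1206 and 915 FPKM in TW-1-3. Its log2 fold change was 1.72 ± 1.82 with TW-1-3 replicate 1 and -0.61 ± 0.32 without it, and neither passed the test. For the 8 photosynthesis genes the medians were 0.87 and -0.79, and for the 9 genes of ethylene synthesis 0.90 and -0.33. The chlorophyll a-b binding protein 3 gene (NM_001254348.2) had 1248, 624 and 480 FPKM in TW-1-M-3, against 49.3, 1531 and 1029 FPKM in TW-1-3. ACC oxidase 1 (XM_003525262.3), the last enzyme of ethylene synthesis, had 293, 706 and 945 FPKM in TW-1-M-3, against 17.6, 1299.5 and 871 FPKM in TW-1-3. In these genes TW-1-3 replicates 2 and 3 were as high as TW-1-M-3 or higher. GASA32 (NM_001253155.2), of a family induced by gibberellin, had 3038, 6265 and 6762 FPKM in TW-1-M-3, against 257, 15156 and 10443 FPKM in TW-1-3, and was a DEG lower in TW-1-M-3 only without TW-1-3 replicate 1 (-1.32 ± 0.49).

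Water channels were mixed. The median of 19 aquaporins was 1.27 with TW-1-3 replicate 1 and -0.11 without it, and without it the median was 0.13 after quantile normalization and 0.20 with equal FPKM sums. Of the 19, 3 were DEGs higher and the 2 tonoplast genes above were lower, beside 5.96% and 8.8% of all annotated genes tested. PIP2-14 (XM_003556184.3), a plasma membrane channel, had 531, 86.9 and 196 FPKM in TW-1-M-3, against 0.55, 28.6 and 17.9 FPKM in TW-1-3, at 4.46 ± 1.20. PIP2-12 (XM_003518249.3) had 74.6, 54.9 and 37.0 FPKM in TW-1-M-3, against 0, 7.49 and 5.75 FPKM in TW-1-3, and was called at the adjusted p without TW-1-3 replicate 1 (2.84 ± 0.33, adjusted p = 0.0435). The abundant PIP2-6 (NM_001250357.1) overlapped between the groups, with 1257, 565 and 1007 FPKM in TW-1-M-3, against 231, 1237 and 749 FPKM in TW-1-3.

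The balance of higher and lower genes of replication and the cell cycle depended on the setting. Of 70 genes for the cell cycle and chromatin, 12 were DEGs higher and 6 DEGs lower, with a median of 0.64, and without TW-1-3 replicate 1 the counts were 5 and 4 and the median 0.26. Among all annotated genes tested, 5.96% were DEGs higher and 8.8% lower, or 4.05% and 7.66% without that library. The same shares stand beside the cell wall counts below. The 12 became 23 without TW-1-3 replicate 2, and 5, 7 and 6 without TW-1-M-3 replicates 1, 2 and 3. With all 6 libraries, a pseudocount of 0.1 gave 7 higher and 7 lower, and no filter gave 6 and 6. With only genes that reached an FPKM of 1 in all 6 libraries there were 0 higher and 5 lower, and the median was -0.79. MCM2-like (XM_003529470.3), a subunit of the replicative helicase, had 10.4, 8.81 and 10.03 FPKM in TW-1-M-3, against 0.49, 5.34 and 4.68 FPKM in TW-1-3. The groups did not overlap, although its log2 fold change was 1.51 ± 0.56 with TW-1-3 replicate 1 and 0.84 ± 0.20 without it, below the DEG threshold. A putative cyclin-A3-1 gene (XM_006577978.2), which is active in S phase in other plants, had 2.94, 4.05 and 7.14 FPKM in TW-1-M-3, against 0.12, 0.67 and 1.28 FPKM in TW-1-3, and it remained a DEG without that library (1.48 ± 0.34). The histone genes named here were lower: H2B.3 (XM_003539749.3) had 0.41, 0.39 and 0.29 FPKM in TW-1-M-3, against 20.0, 13.8 and 4.28 FPKM in TW-1-3, and histone H1 (XM_003537579.3) was at -1.99 ± 0.58. Of 44 cell wall genes, 4 were DEGs higher and 1 lower in both fits, and the 4 became 10 without TW-1-3 replicate 2 and 8 without TW-1-3 replicate 3. Expansin-A17 (XM_003554538.3), which loosens walls, had 15.7, 27.2 and 64.6 FPKM in TW-1-M-3, against 0, 3.97 and 6.53 FPKM in TW-1-3, while expansin-A1-like (XM_003549635.3) was at -3.21 ± 1.09 and had 0.60, 1.26 and 0.12 FPKM in TW-1-M-3, against 95.3, 5.83 and 3.88 FPKM in TW-1-3.

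With all 6 libraries, some hormone and antioxidant lists held DEGs in both directions, others in only 1 direction and others held none. Among the transcription factors that respond to ethylene, 3 of 18 were DEGs higher and 3 lower, or 2 and 2 without TW-1-3 replicate 1. AP2-3 (NM_001254270.1) had 10.6, 7.93 and 9.74 FPKM in TW-1-M-3, against 0.59, 2.27 and 1.45 FPKM in TW-1-3, and was a DEG at 2.15 ± 0.33, whereas the RAP2-3-like gene (XM_003546320.3) had 527, 736 and 306 FPKM in TW-1-M-3, against 5487, 1026 and 959 FPKM in TW-1-3, at -1.83 ± 0.74. No gene of the 6 in the gibberellin list was a DEG with all 6 libraries, and 1 was lower without that library. In the abscisic acid list 2 of 15 were DEGs and both were lower, and in the auxin list 1 of 24 was a DEG and it was higher, with the same counts in both fits. Of 18 genes for catalases, ascorbate enzymes and peroxiredoxins, 2 were higher and 2 lower, none of 9 class III peroxidases was a DEG, 1 of 15 glutathione S-transferases was higher, and 1 of 24 flavonoid genes was higher and 1 lower. These counts were equal in the fit without TW-1-3 replicate 1, except that no flavonoid gene was then lower. Among all annotated genes tested, 5.96% were DEGs higher and 8.8% lower, or 4.05% and 7.66% without that library. Counts near these shares, in the lists above and in those that follow, do not set a list apart. Among 34 cytochrome P450 genes 3 were DEGs, or 4 without that library, and all were lower, with CYP78A5-like (XM_003518725.3), of a family that promotes organ growth in Arabidopsis, at 0.60, 0.90 and 0.20 FPKM in TW-1-M-3, against 4.14, 8.22 and 7.66 FPKM in TW-1-3. Of 42 ribosomal protein genes 2 were higher and 3 lower, or 2 and 2 without TW-1-3 replicate 1. Their median was -0.004 with all 6 libraries and -0.27 without that library, where 8 were above and 34 below 0. With all 6 it was 0.48 after quantile normalization and 0.46 with equal FPKM sums. Without TW-1-3 replicate 1 it was 0.02 after quantile normalization, with 22 above and 20 below 0. With equal FPKM sums it was then 0.006, with 21 above and 21 below.

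Of the 10 genes of phytate metabolism 1 was a DEG. MIPS (NM_001248320.1), which makes the inositol ring, had 4.26, 4.30 and 14.9 FPKM in TW-1-M-3, against 1.5, 2.87 and 2.6 FPKM in TW-1-3. It met the DEG definition at 1.22 ± 0.48 but not the adjusted p, and it was no longer a DEG without TW-1-M-3 replicate 3 (0.69) or without any one of TW-1-3 replicates 1, 2 and 3 (1.03, 1.35 and 1.29). Whether this copy is the one that carries the deletion was not settled. PAP3 (NM_001249748.1), an acid phosphatase gene with a phytase synonym, was the most abundant, with 339.9, 282 and 304 FPKM in TW-1-M-3, against 306, 361 and 301 FPKM in TW-1-3. Of the kinases, ITPK1 (NM_001250900.1) was at 0.63 ± 0.33, ITPK2 (NM_001250537.1) at 0.21 ± 0.37, ITPK3 (XM_006580841.2) at -0.06 ± 0.31, ITPK4 (NM_001250571.1) at -0.59 ± 0.32, IPK1 (XM_006595418.2) at 0.42 ± 0.69 and IPK2 (NM_001250522.1) at 0.19 ± 0.34. MIPS4 (XM_003531313.3) spread widely within each line, with 2.73, 9.82 and 0.17 FPKM in TW-1-M-3, against 2.11, 3.00 and 13.4 FPKM in TW-1-3. LOC100787977 (XM_014766484.1), which has phytase among its synonyms, had 2.12, 1.5 and 2.02 FPKM in TW-1-M-3, against 5.49, 3.17 and 2.85 FPKM in TW-1-3. A p that missed the threshold does not show equal levels, since errors of 0.28 to 0.69 for PAP3 and the kinases leave room for changes of that size.

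Several genes separated the lines at stage 3 and were already apart at both earlier stages. Of the 47 genes called without TW-1-3 replicate 1, 14 of the 17 higher and 15 of the 30 lower ones did not overlap between the lines, in the same direction, at stage 1 and at stage 2 as well. With no overlap at both earlier stages, 5.08% of all genes tested were above TW-1 in the TW-1-M libraries and 8.03% were below. The soyasapogenol B glucuronide galactosyltransferase-like gene (XM_003552236.3), which adds a sugar to saponins, had 42.1, 18.8 and 20.9 FPKM in TW-1-M-3 and was listed at 0, 0 and 0.07 in TW-1-3, at 4.70 ± 0.35 (adjusted p = 0.0299). The uncharacterized LOC100796193 (XM_014774410.1) had 10.9, 19.0 and 12.6 FPKM in TW-1-M-3, against 0, 0.15 and 0.28 FPKM in TW-1-3, at 3.70 ± 0.28 (adjusted p = 0.0299). A villin-4-like gene (XM_014765374.1), of a family that bundles actin filaments, was almost absent from TW-1-M-3, with 0.01, 0.02 and 0.01 FPKM, against 5.40, 7.67 and 7.09 FPKM in TW-1-3, at -2.92 ± 0.22 (adjusted p = 0.0299). The fifth gene called with all 6 libraries was the unannotated RNA XR_001385765.1, with 0, 0 and 0.03 FPKM in TW-1-M-3, against 5.17, 3.75 and 5.27 FPKM in TW-1-3 (adjusted p = 0.0472).

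A plastid envelope porin gene, LOC100802449 (XM_003543662.3), had nearly the same level in all TW-1-M libraries. It had 24.7, 21.5 and 28.7 FPKM in TW-1-M-3, against 0.30, 0.20 and 1.84 FPKM in TW-1-3, at 3.80 ± 0.37 without TW-1-3 replicate 1 (adjusted p = 0.0317). ZPR3A (XM_006594147.2), a small zipper protein that binds leaf polarity factors in Arabidopsis, had 0.08, 0.51 and 0.28 FPKM in TW-1-M-3, against 78.7, 8.96 and 15.97 FPKM in TW-1-3. A gene named for a disease resistance protein, LOC100305457 (NM_001248728.1), had 3.58, 3.84 and 2.98 FPKM in TW-1-M-3 and was listed at 0 in all TW-1-3 libraries. The highest level among the genes shown here was that of XM_003519333.3, which carries no name in the sources used here and was picked after its values were seen. It had 4178, 5413 and 1181 FPKM in TW-1-M-3, against 0, 5.24 and 15.0 FPKM in TW-1-3. The gene for the deubiquitinating enzyme UCH-L3 (XM_003524030.3), also picked after its values were seen, had 1.92, 2.44 and 1.80 FPKM in TW-1-M-3, against 39.98, 31.8 and 17.1 FPKM in TW-1-3, at -3.001 ± 0.29 without TW-1-3 replicate 1 (adjusted p = 0.0317).

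**Figure D4:**
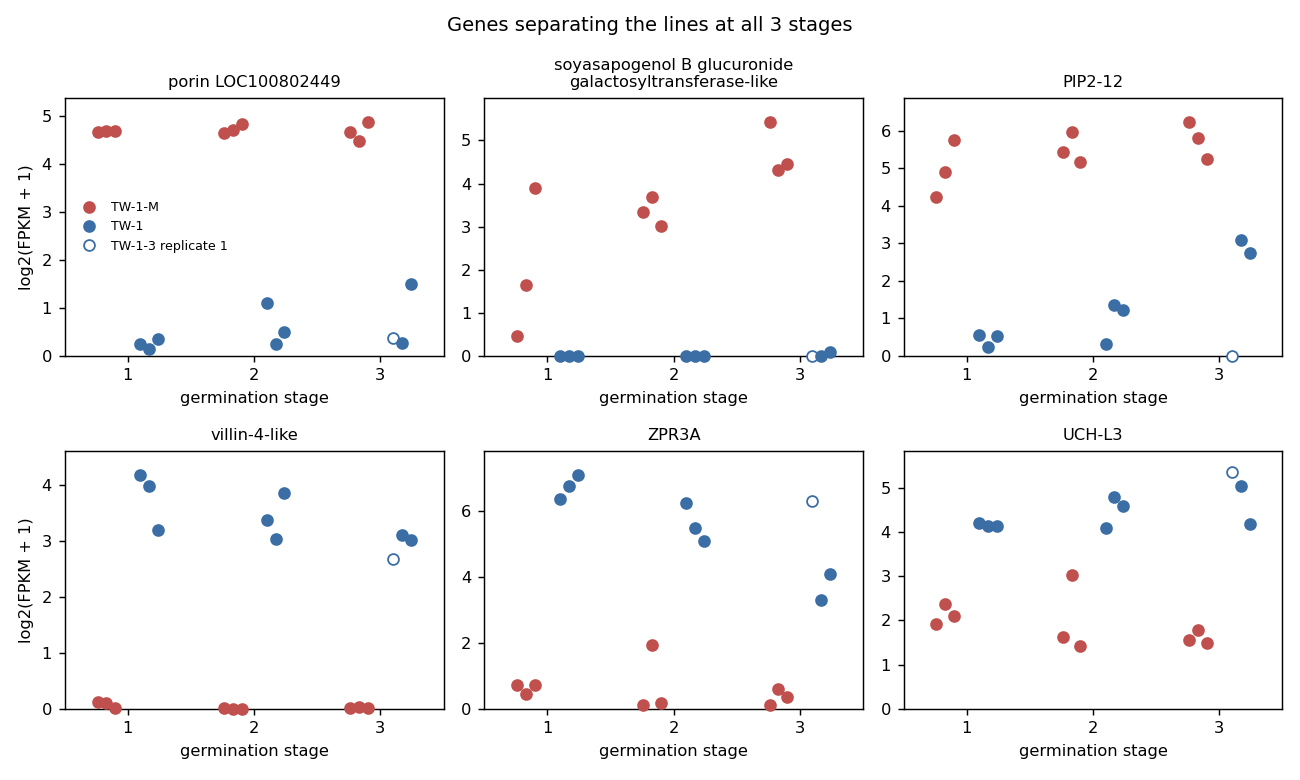
Expression of 6 genes as log2(FPKM + 1) in the 18 libraries by germination stage, with TW-1-M in red to the left of TW-1 in blue and TW-1-3 replicate 1 as an open circle. In every panel the lines do not overlap at any stage: the porin, the soyasapogenol galactosyltransferase-like gene and PIP2-12 are higher in TW-1-M, and villin-4-like, ZPR3A and UCH-L3 are lower.

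The line difference at stage 3 was then compared with that at the earlier stages in 1 fit over all 18 libraries. At the adjusted p, 11 genes (0.0405%) differed between stages 3 and 2 and 17 genes (0.0626%) between stages 3 and 1, and without TW-1-3 replicate 1 the numbers were 459 (1.69%) and 39 (0.144%). Polyubiquitin 11 (XM_006594069.2), a source of ubiquitin for protein turnover, crossed over: it had 221, 168 and 125 FPKM in TW-1-M-3, against 72.0, 53.4 and 43.8 FPKM in TW-1-3. At stage 2 the order was the opposite, with 31.3, 59.0 and 46.8 FPKM in TW-1-M-2, against 113, 95.5 and 93.2 FPKM in TW-1-2. The difference at stage 3 exceeded that at stage 2 by 2.74 ± 0.39 on the log2 scale (limma adjusted p = 0.0157), and at stage 3 itself the gene was a DEG at 1.58 ± 0.35. Another 2 loci, which carry no name, crossed over in the same way, LOC100815545 (XM_003537230.3), with 86.8, 78.9 and 43.1 FPKM in TW-1-M-3, against 22.7, 19.5 and 15.5 FPKM in TW-1-3, and LOC100787543 (XM_003552643.3), with 101, 37.2 and 22.0 FPKM in TW-1-M-3, against 3.74, 8.25 and 6.84 FPKM in TW-1-3. These genes were picked after their values were seen.

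For a chaperone gene and a bromodomain gene the lines were further apart at stage 2 than at stage 3. A heat shock cognate 70 kDa protein 2-like gene (XM_006574794.1), of a chaperone family, had 2.41, 2.61 and 5.33 FPKM in TW-1-M-3, against 10.9, 20.8 and 14.7 FPKM in TW-1-3. At stage 2 it had 0.41, 0.33 and 0.42 FPKM in TW-1-M-2, against 36.5, 24.8 and 28.3 FPKM in TW-1-2. The transcription factor GTE10-like gene (XM_003525483.3), a bromodomain protein, had 2.05, 2.61 and 2.28 FPKM in TW-1-M-3, against 1.85, 1.40 and 1.44 FPKM in TW-1-3, but 2.60, 2.21 and 2.80 FPKM in TW-1-M-2, against 16.7, 15.5 and 14.8 FPKM in TW-1-2. The LHCB1-7 gene went the other way. LHCB1-7 (NM_001253217.2), an antenna protein of photosystem II, became abundant only in TW-1-3 replicates 2 and 3, with 3.73, 2.23 and 1.64 FPKM in TW-1-M-3, against 0.10, 38.8 and 29.1 FPKM in TW-1-3. Without TW-1-3 replicate 1 it was lower in TW-1-M-3 at -3.33 ± 0.30 on the log2 scale (adjusted p = 0.023) and its interaction with stage 2 passed (adjusted p = 0.0014), while with that library it was not called (adjusted p = 0.584). The last 2 genes were picked after their values were seen.

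**Figure D5:**
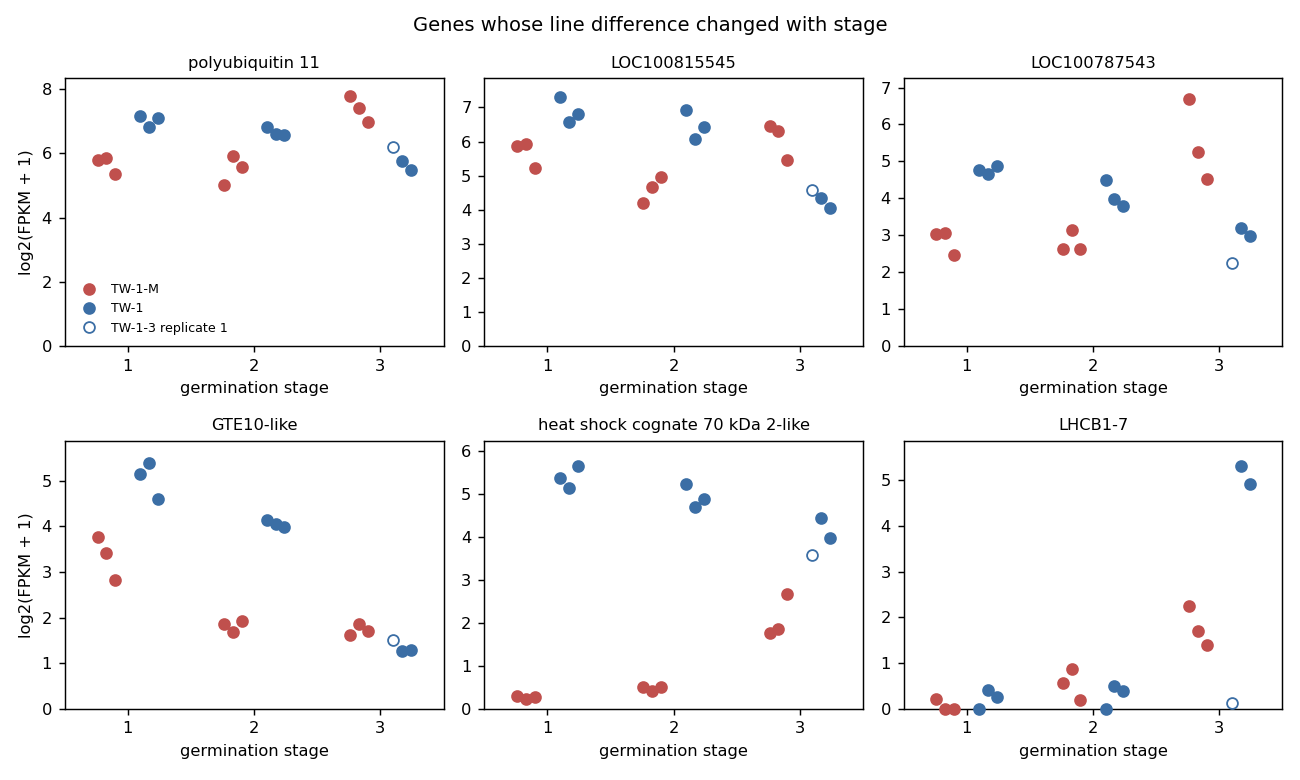
Expression of 6 genes as log2(FPKM + 1) in the 18 libraries by germination stage, with TW-1-M in red to the left of TW-1 in blue and TW-1-3 replicate 1 as an open circle. Polyubiquitin 11, LOC100815545 and LOC100787543 are lower in TW-1-M at stages 1 and 2 and higher at stage 3. For GTE10-like and the heat shock cognate gene the lines come closer at stage 3, where GTE10-like is slightly higher in TW-1-M. LHCB1-7 is high in 2 TW-1-3 libraries (38.8 and 29.1 FPKM).

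Among the largest changes that did not overlap between the groups, genes outside these lists were also found. A class III acidic endochitinase gene (NM_001249702.2), the product of which cleaves chitin, had 20.5, 19.4 and 77.3 FPKM in TW-1-M-3, against 0.25, 4.38 and 1.95 FPKM in TW-1-3, at 3.59 ± 0.71. LOC100500432 (NM_001251064.2), uncharacterized, had 77.7, 57.8 and 19.5 FPKM in TW-1-M-3, against 0, 0 and 0.15 FPKM in TW-1-3, at 5.44 ± 0.51. PIB1 (NM_001248975.2), named as uncharacterized, was at 3.19 ± 0.93, and at 2.07 ± 0.33 without TW-1-3 replicate 1. The metalloendoproteinase 5-MMP-like gene (XM_003519347.3), a matrix protease, had 0.69, 5.19 and 29.4 FPKM in TW-1-M-3, against 351, 130.38 and 107 FPKM in TW-1-3, at -4.64 ± 1.04. MAT1 (NM_001251649.1), a maturation-associated protein gene, was at -4.42 ± 1.03. These 5 were DEGs with and without TW-1-3 replicate 1.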

How the data were processed

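RNA of germinating seeds was sequenced in 18 libraries, of which the 6 of stage 3 were compared. The authors trimmed reads with Trimmomatic, mapped them with TopHat to the Glyma 1.01 assembly, and deposited FPKM per gene made with cuffquant and cuffnorm; versions are not given in the sources used here. FPKM holds no read counts, so no counting interval or floor was computed. Every column matched 1 sample by name.

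The genes that reached an FPKM of 1 in 3 or more libraries were tested on log2(FPKM + 1) with limma 3.58.1 in R 4.3.3 (lmFit, eBayes with trend, two-sided, Benjamini-Hochberg adjustment over all 27150 genes). The fit was also run on simulated data, with the spread of the stage 3 libraries other than TW-1-3 replicate 1. That simulation cannot show how the fit behaves with this outlying library. Symbols for 36767 genes came from RefSeq accessions and annotations for 3129 from the study's supplementary gene lists. Summaries used Python 3.11.15, pandas 2.3.3, NumPy 2.4.6, SciPy 1.17.1 and matplotlib 3.10.9.

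The members and lists were chosen with earlier results of these data known. Named genes were those called at the adjusted p, the 10 largest non-overlapping annotated DEGs each way, the 10 largest annotated calls each way without TW-1-3 replicate 1, each list's 3 most abundant genes and its DEGs, and phytate genes; not every one is printed, and genes picked after their values were seen are marked. Alternatives were other pseudocounts, filters, scalings, a replicate block, all 18 libraries in one fit, no trend, ratios of mean FPKM, and each library left out. No gene or transcript sequence was used here.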

Additional observations from a re-analysis of the deposited data

Results flagged for a closer look

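Stage and line interacted for 5 of the genes named, by limma's test of the line difference (TW-1-M minus TW-1, log2 scale) at stage 3 minus that at an earlier stage, adjusted over 27150 genes. Polyubiquitin 11 differed by 2.74 from stage 2 (adjusted p = 0.0157) and by 2.95 from stage 1 (adjusted p = 0.00567). LOC100815545 differed by 3.62 from stage 2 (adjusted p = 0.00963) and by 2.99 from stage 1 (adjusted p = 0.0219), and LOC100787543 by 3.97 (adjusted p = 0.0175) and 4.59 (adjusted p = 0.00567). GTE10-like differed by 2.61 from stage 2 (adjusted p = 0.00963) and by 2.08 from stage 1 (adjusted p = 0.0292), and the heat shock cognate 70 kDa protein 2-like gene by 2.56 (adjusted p = 0.0157) and 3.22 (adjusted p = 0.00561). At stage 3 the lines did not overlap in any of these 5 genes. All 10 calls were lost without replicate 2 of every group and without replicate 3 of every group, and 9 of the 10 were lost without replicate 1 of every group, while the sign of each difference held.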

How the results depend on the processing

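The counts of genes called depended on single libraries and on scaling. With single libraries left out, the 1367 DEGs ranged from 651 to 2859, the 540 higher from 279 to 1370, the 827 lower from 372 to 1489 and the 5 calls at the adjusted p from 0 to 47. Without TW-1-3 replicate 1, leaving out a further library gave 757 to 1508 DEGs, 262 to 529 higher, 477 to 979 lower and 3 to 53 adjusted calls. Where this left 1 TW-1-3 library (3 and 12 adjusted calls), that library was assumed to vary like the TW-1-M-3 libraries. With equal FPKM sums there were 2253 DEGs (1890 higher, 363 lower) and 11 adjusted calls, or 894 higher, 322 lower and 93 adjusted calls without that library. Fitting all 18 libraries together gave 2540 DEGs (1057 higher, 1483 lower) and 851 adjusted calls, or 298 adjusted calls without TW-1-3 replicate 1. The ratio of mean FPKM gave 896 DEGs higher, or 1530 DEGs and 674 higher without that library, where a pseudocount of 0.1 gave 1461 and 630. A filter of FPKM 1 in each compared library left 224 DEGs higher and 0 adjusted calls (by construction fewer genes), no filter left 1 adjusted call, or 7 without that library, and quantile normalization gave 19. Elsewhere the cause was not tested. Same-numbered libraries correlated at -0.214, -0.583 and 0.197 after removal of group means. No pairing by number was seen, but so few libraries cannot exclude one. A replicate block gave 1075 DEGs and 0 adjusted calls, or 809 and 24 without TW-1-3 replicate 1. The interaction with stage 2 called 36 genes after quantile normalization, 459 without TW-1-3 replicate 1, 23 with the block and 0 to 1 with a replicate number left out, and that with stage 1 called 39 without TW-1-3 replicate 1 and 0 to 4 with a replicate number left out. The early stage lists grew to 4978 genes when taken from TW-1-M alone. Some genes that were not called with all 6 libraries changed sign. With single libraries left out, KTI-1 ranged from -1.41 to 0.07, PIP2-6 from -0.11 to 1.1, TUBB3 from -0.61 to 2.99, the chlorophyll a-b binding protein 3 gene from -0.80 to 1.66, ACC oxidase 1 from -0.87 to 2.19, GASA32 from -1.32 to 1.62, IPK1 from -0.36 to 0.82 and IPK2 from -0.07 to 0.44, each lowest or, for KTI-1, highest without TW-1-3 replicate 1. PAP3 ranged from -0.13 to 0.02, ITPK2 from -0.12 to 0.49, ITPK3 from -0.28 to 0.10 and MIPS4 from -1.43 to 0.17. Under the ratio of means TUBB3 was at -0.03, the chlorophyll gene at -0.15, ACC oxidase 1 at -0.17 and GASA32 at -0.69. PAP3 was at 0.33 after quantile normalization and 0.41 with equal sums, and ITPK3 at 0.34 with equal sums. The FPKM table holds no read counts, so which changes depth limits is unknown.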
